A study of Drosophila melanogaster with 6 samples.

Results

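The cytochrome P450 genes of *Drosophila* were followed in mRNAs recovered by a pull-down aimed at the *Gr5a+* sweet-taste neurons. The flies were on a control or a sugar diet, and the recovered RNA also held transcripts of other cells. Members were the genes of the count files whose FlyBase symbol begins with Cyp and a digit, with *Cyp4g1* set aside. This rule took 85 of 17489 genes. Of these, 83 have symbols of the P450 form (Cyp, family number, subfamily letter, gene number), from 20 families and 45 subfamilies, and they are the members described below. The other 2, *Cyp1* and *Cyp40*, are cyclophilins that share only the first letters of the symbol. Of the 83 members, 75 had at least 10 counts in at least 3 libraries and were tested between the diets. The rule used no measured value.

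Cytochrome P450s are heme enzymes that insert oxygen into small lipophilic molecules. In insects, those of the endoplasmic reticulum draw electrons from the reductase Cpr, and those of the mitochondrion draw them from adrenodoxin and its reductase. Insect P450s are grouped into the CYP2, CYP3, CYP4 and mitochondrial clans. The CYP3 clan holds many enzymes that break down insecticides and plant toxins, the CYP4 clan includes enzymes that act on fatty acids and hydrocarbons, and the CYP2 and mitochondrial clans hold those that make and degrade the moulting hormone ecdysone. In the fly, the fat body, the gut, the Malpighian tubules and the oenocytes, which make cuticular hydrocarbons, are rich in P450 transcripts.

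Translating mRNA affinity purification (TRAP) pulls down mRNAs on ribosomes that carry a tagged Rpl3 protein, made here under *Gr5a*-GAL4 in *Gr5a>UAS-Rpl3-3XFLAG* males. From day 5 to day 12, for 7 days, the flies were fed 5% sucrose (CD + OSMI) or 30% sucrose (SD + OSMI). Both foods contained 10 µM OSMI-1, an inhibitor of O-GlcNAc transferase (OGT), dissolved in 10% DMSO, so that every fly compared here had received the inhibitor and no difference between the diets can be read as an effect of OSMI-1. Each diet had 3 biological replicates of 300 heads, numbered 1 to 3 for CD + OSMI and 4 to 6 for SD + OSMI.

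The libraries held 13324513 to 16122009 counts. Levels are CPM scaled by TMM factors of 0.956 to 1.04, so the totals of the libraries differ slightly on this scale. Between replicates of 1 diet, the chi-square per degree of freedom was 10.6 to 33.1, where sampling noise alone would give about 1. Mitochondrial ribosomal RNA made up 1.60% of the counts of SD + OSMI replicate 6 and 0.266% to 0.351% of those of the other 5 libraries. The sweet receptor genes *Gr5a*, *Gr64a*, *Gr64f*, *Gr61a* and *Gr43a*, which mark the labelled neurons, summed to 2.68 to 5.75 CPM on CD + OSMI and 3.09 to 5.19 CPM on SD + OSMI. Photoreceptor genes, by comparison, summed to 26002.9 to 35959.2 CPM over the 6 libraries. The recovered RNA therefore held transcripts of other cells. In such bulk RNA, fewer cells of a type and less RNA per cell cannot be told apart.

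The diets were compared for each of 11915 genes with edgeR's quasi-likelihood test. A gene was called where the adjusted p (Benjamini-Hochberg) was under 0.1. Positive log2 fold changes are higher on SD + OSMI. Of the 75 tested members, 4 rose and 6 fell on SD + OSMI (5.33% and 8% of them). Over all genes tested, 6.91% rose and 2.18% fell, and 9.09% were called in either direction, against 13.3% of the members. The members that rose were *Cyp312a1*, *Cyp6a18*, *Cyp49a1* and *Cyp4aa1*, and those that fell were *Cyp9b2*, *Cyp28d1*, *Cyp313a1*, *Cyp309a1*, *Cyp4d21* and *Cyp4ac2*. In each of the 10, the 3 libraries of one diet were all above the 3 of the other. Without overlap between the diets, 11 members lay higher and 11 lay lower on the sugar diet, against 14.5% and 10.2% of all genes. DESeq2 called the same 10 members and *Cyp4ad1*, and 12% of all genes. The calls depended on single libraries. When CD + OSMI replicate 3 or replicate 6 of SD + OSMI was left out, edgeR called none of the 75 members, although 15 and 13 of them still had an unadjusted p under 0.05. Without SD + OSMI replicate 5 it called 1 member and without CD + OSMI replicate 2 it called 2, while 13 were called when replicate 1 of CD + OSMI was left out and 15 when replicate 4 of SD + OSMI was. Calls over all genes moved in the same direction, to 42 higher and 34 lower without SD + OSMI replicate 6 and to 1634 higher and 800 lower without SD + OSMI replicate 4. None of the 10 changed sign in any setting tried.

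**Figure D1:**
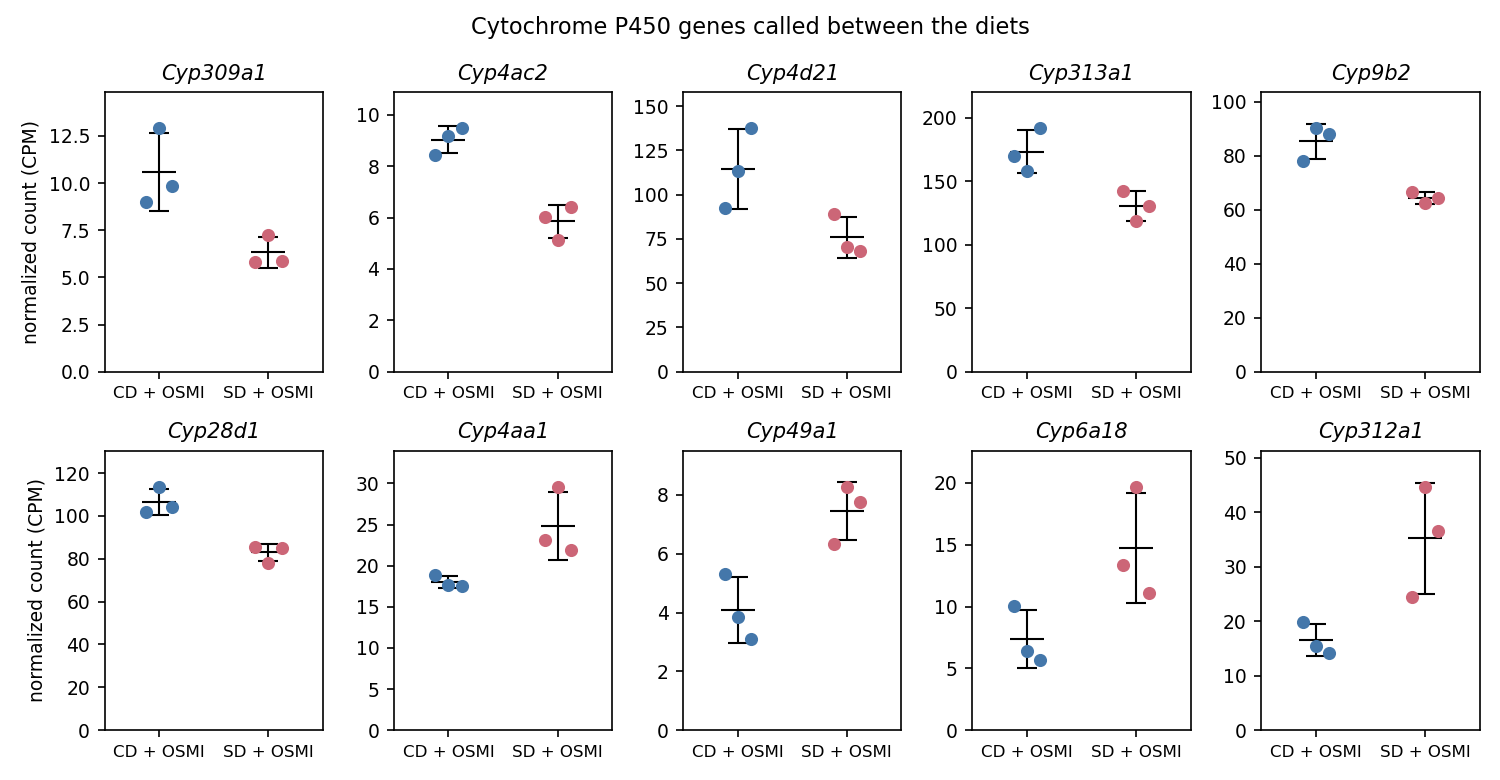
Normalized counts (CPM, vertical axis from 0) of the 10 P450 genes called between the diets, in order of log2 fold change. Points are libraries (3 on CD + OSMI in blue, 3 on SD + OSMI in red), long dashes are means and bars are SDs. In each panel the 3 libraries of one diet lie above all 3 of the other.

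Of the 6 members that fell, 4 were among the 10 members with the highest level per length, and the other 2 ranked 41 and 42. *Cyp313a1* (FBgn0038236, chromosome 3R, 14521049 to 14523064 in BDGP6), a CYP4-clan gene, had the highest level per length of the 83 members, 93.6 CPM per kb of exon. It was at 170, 158 and 192 CPM in CD + OSMI replicates 1 to 3 and at 143, 119 and 131 CPM in SD + OSMI replicates 4 to 6. Every sugar-diet library was below every control library. Its mean went from 173 ± 16.8 CPM (SD, n = 3) to 131 ± 11.9 CPM (SD, n = 3), a log2 fold change of −0.41 ± 0.095 (SE, edgeR adjusted p = 0.0349).

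*Cyp28d1* (FBgn0031689, chromosome 2L, 5210460 to 5212445), a CYP3-clan enzyme linked to nicotine tolerance in flies, was at 102, 113 and 104 CPM on CD + OSMI and at 85.5, 78.2 and 85.0 CPM on SD + OSMI. The replicates of each diet lay close together and apart from the other diet. The log2 fold change was −0.36 (SE 0.084, adjusted p = 0.0330 from edgeR). This was also the only called member that passed the test of practical equivalence within 1.5-fold described below, so its fall was detected and was small. Its exons share 51 bases (3.15% of their length) with *CG7742* on the opposite strand. *CG7742* had a log2 fold change of 1.06 and an adjusted p of 0.196 from edgeR, and whether the count used strand is not given in the sources used here.

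*Cyp9b2* (FBgn0015039, chromosome 2R, 7130277 to 7132139) is another CYP3-clan gene and had the smallest p of the family. It was at 78.0, 90.2 and 88.1 CPM on CD + OSMI and at 66.7, 62.4 and 64.3 CPM on SD + OSMI. All 3 sugar-diet libraries fell within a narrow range under the control libraries. The means were 85.4 ± 6.51 CPM on the control diet and 64.5 ± 2.16 CPM on the sugar diet (SD, n = 3 each), and the fall was a log2 fold change of −0.41 ± 0.087 (SE, edgeR adjusted p = 0.0233).

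*Cyp4d21* (FBgn0031925, chromosome 2L, 7605600 to 7607701), also known as *sxe1*, is a male-biased gene of the head fat body that acts in courtship and mating. It was at 92.3, 114 and 137 CPM on CD + OSMI and at 89.1, 70.4 and 68.2 CPM on SD + OSMI. The replicates were more spread than those of the genes above, and the lowest control library was only just above the highest sugar-diet library. The log2 fold change was −0.59 (SE 0.16, adjusted p = 0.0721 from edgeR).

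The last members that fell were less abundant, and no role is given for them here. *Cyp309a1* (FBgn0031432, chromosome 2L, 2562483 to 2564830, CYP3 clan) was at 8.97, 12.9 and 9.86 CPM on CD + OSMI and at 5.83, 7.27 and 5.87 CPM on SD + OSMI. It had the largest fall among called members, with a log2 fold change of −0.74 ± 0.20 (SE, edgeR adjusted p = 0.0581). *Cyp4ac2* (FBgn0031694, chromosome 2L, 5266392 to 5268455, CYP4 clan) was at 8.46, 9.19 and 9.47 CPM on CD + OSMI and at 6.02, 5.14 and 6.40 CPM on SD + OSMI. The diets were well apart relative to the spread within each of them, and the log2 fold change was −0.63 (SE 0.19, adjusted p = 0.0778 from edgeR). Each of the 6 falls was under 2-fold, from 1.29-fold for *Cyp28d1* to 1.67-fold for *Cyp309a1*.

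The 4 members that rose were of moderate or low level, ranked 25 to 58 of the 75 in CPM per kb. *Cyp312a1* (FBgn0036778, chromosome 3L, 18128940 to 18132689, CYP4 clan) was at 19.8, 15.5 and 14.2 CPM on CD + OSMI and at 24.5, 44.7 and 36.5 CPM on SD + OSMI. The sugar-diet libraries were all higher but spread widely, with replicate 5 the highest. The means were 16.5 ± 2.94 CPM on the control diet and 35.2 ± 10.1 CPM on the sugar diet (SD, n = 3 each), and the rise was a log2 fold change of 1.09 ± 0.22 (SE, edgeR adjusted p = 0.0426).

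*Cyp6a18* (FBgn0039519, chromosome 3R, 27478675 to 27482904) belongs to the CYP3 clan and is the only called gene of the Cyp6a subfamily. It was at 10.1, 6.38 and 5.65 CPM on CD + OSMI and at 13.4, 19.7 and 11.1 CPM on SD + OSMI. The highest control library was close to the lowest sugar-diet library. The log2 fold change was 0.998 (SE 0.26, edgeR adjusted p = 0.0596).

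*Cyp49a1* (FBgn0033524, chromosome 2R, 10449350 to 10458892), of the mitochondrial clan, was at 5.29, 3.84 and 3.11 CPM on CD + OSMI and at 6.33, 8.27 and 7.75 CPM on SD + OSMI. It rose by a log2 fold change of 0.87 ± 0.25 (SE, edgeR adjusted p = 0.0644). It was the only mitochondrial-clan member called. *Cyp4aa1* (FBgn0034053, chromosome 2R, 15942864 to 15947266, CYP4 clan) was at 18.9, 17.7 and 17.5 CPM on CD + OSMI and at 23.1, 29.6 and 21.9 CPM on SD + OSMI, with a log2 fold change of 0.47 ± 0.14 (SE, edgeR adjusted p = 0.0699). The control libraries of *Cyp4aa1* were close together, and SD + OSMI replicate 5 again stood highest. Its exons share 334 bases (15.8% of their length) with *Strn-Mlck* on the opposite strand, whose log2 fold change was −0.08 (edgeR adjusted p = 0.745).

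Another 3 members differed by at least 2-fold without being called. *Cyp4ad1* (CYP4 clan) had the largest log2 fold change of the family, 1.69 (SE 0.56, adjusted p = 0.109 from edgeR). It rested on 29, 4 and 14 counts on CD + OSMI and 35, 83 and 34 counts on SD + OSMI, and was called by DESeq2 (adjusted p = 0.0317) and by edgeR without the filter on low counts (adjusted p = 0.0786). *Cyp313a4* went from 0.992 ± 0.370 CPM to 2.04 ± 0.463 CPM (SD, n = 3 each), with a log2 fold change of 1.04 ± 0.44 (SE, edgeR adjusted p = 0.186) and no overlap between the diets. *Cyp6a19* just passed the filter, with 0, 10 and 4 counts on CD + OSMI and 10, 10 and 12 on SD + OSMI, and had a log2 fold change of 1.18 ± 0.79 (SE, edgeR adjusted p = 0.429). All 3 sugar-diet libraries and, of the control libraries, only CD + OSMI replicate 2 reached 10 counts. Of the exons of *Cyp6a19*, 20.8% (397 bases) overlap *Cyp6a9* on the opposite strand. *Cyp6a9* averaged 15.7 ± 0.681 CPM on the control diet and 17.0 ± 1.61 CPM on the sugar diet (SD, n = 3 each). Without the strand setting, reads of the shared stretch cannot be assigned. Over all genes, 6.42% differed by 2-fold or more. Since the filter lets in low genes through the diet where they are high, nothing is read from a share of members beside it.

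**Figure D2:**
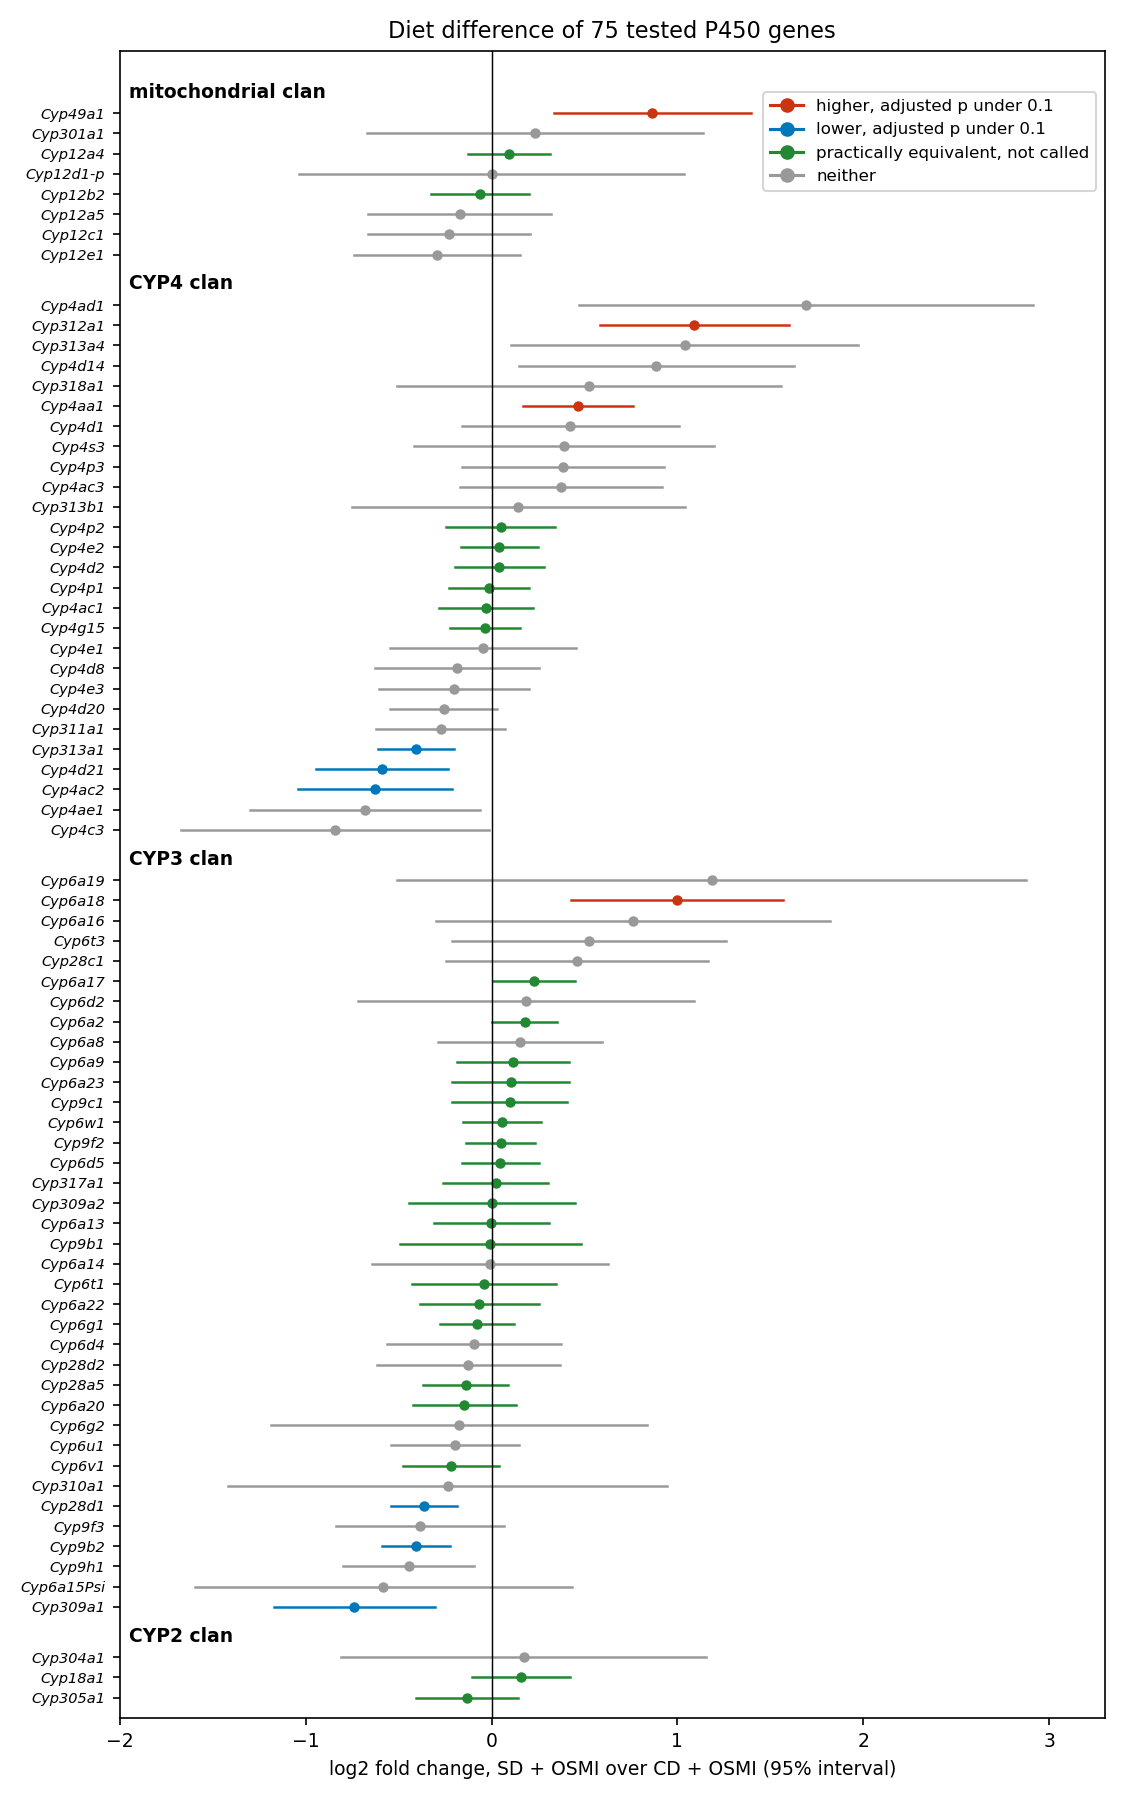
Log2 fold change (SD + OSMI over CD + OSMI, horizontal axis) of the 75 tested P450 genes with 95% intervals, grouped by clan. Red points rose (4), blue points fell (6), green points were not called and practically equivalent within 1.5-fold (28), and grey points were neither (37).

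For most of the family the diets did not differ detectably, and for many members the difference was bounded. A gene was counted as practically equivalent where a test against changes of 1.5-fold or more, built on the standard error of DESeq2, gave q under 0.05. This held for 29 of the 75 members (38.7%), against 47.1% of all genes. They were *Cyp28d1* and 28 members that were not called, whose log2 fold changes were −0.22 to 0.23. The remaining 37 members were neither called nor equivalent. Their median total over the 6 libraries was 348 counts, against 2379.5 counts for the members that were called or equivalent. For these 37, edgeR called no change and the equivalence test did not show its absence, while DESeq2 called 1 of them (*Cyp4ad1*). The standard errors of the 75 log2 fold changes were 0.083 to 0.79, with a median of 0.20. As many members were lower as were higher (38 with a negative and 37 with a positive log2 fold change), with a median of −0.0021 for the family and −0.0027 for all genes tested. The median size of the log2 fold change was 0.19 in both.

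Few of the 83 genes made up most of their summed level. The 10 members with the highest level per length were *Cyp313a1*, *Cyp6g1*, *Cyp6a2*, *Cyp28d1*, *Cyp6d5*, *Cyp4d21*, *Cyp4g15*, *Cyp9b2*, *Cyp9f2* and *Cyp6w1*, at 93.6, 66.0, 58.8, 58.6, 56.0, 52.2, 45.2, 45.0, 31.7 and 24.9 CPM per kb of exon. Together they held 54.2% to 58.8% of the family's summed CPM per kb in each library. Of these 10 genes, 4 fell (*Cyp313a1*, *Cyp28d1*, *Cyp4d21* and *Cyp9b2*), none rose, and the other 6 were practically equivalent. Of the 2363 tested genes at or above the level per length of the last of these 10, 3.94% rose and 4.78% fell. *Cyp6g1*, whose overexpression gives resistance to DDT, averaged 141 ± 15.3 CPM on the control diet and 133 ± 7.90 CPM on the sugar diet (SD, n = 3 each, log2 fold change −0.08, SE 0.092). *Cyp6a2*, which also metabolizes insecticides, was at 92.1, 90.2 and 94.9 CPM on CD + OSMI and at 105, 97.1 and 111 CPM on SD + OSMI. Its libraries did not overlap between the diets, but the difference was small (log2 fold change 0.18 ± 0.083 SE, edgeR adjusted p = 0.234). *Cyp4g15*, a gene of the nervous system related to the enzymes that make hydrocarbons, had a log2 fold change of −0.03 (SE 0.087). *Cyp6d5*, *Cyp9f2* and *Cyp6w1* had log2 fold changes of 0.05, 0.05 and 0.06. At the other end, 8 tested members were under 1 CPM per kb.

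**Figure D3:**
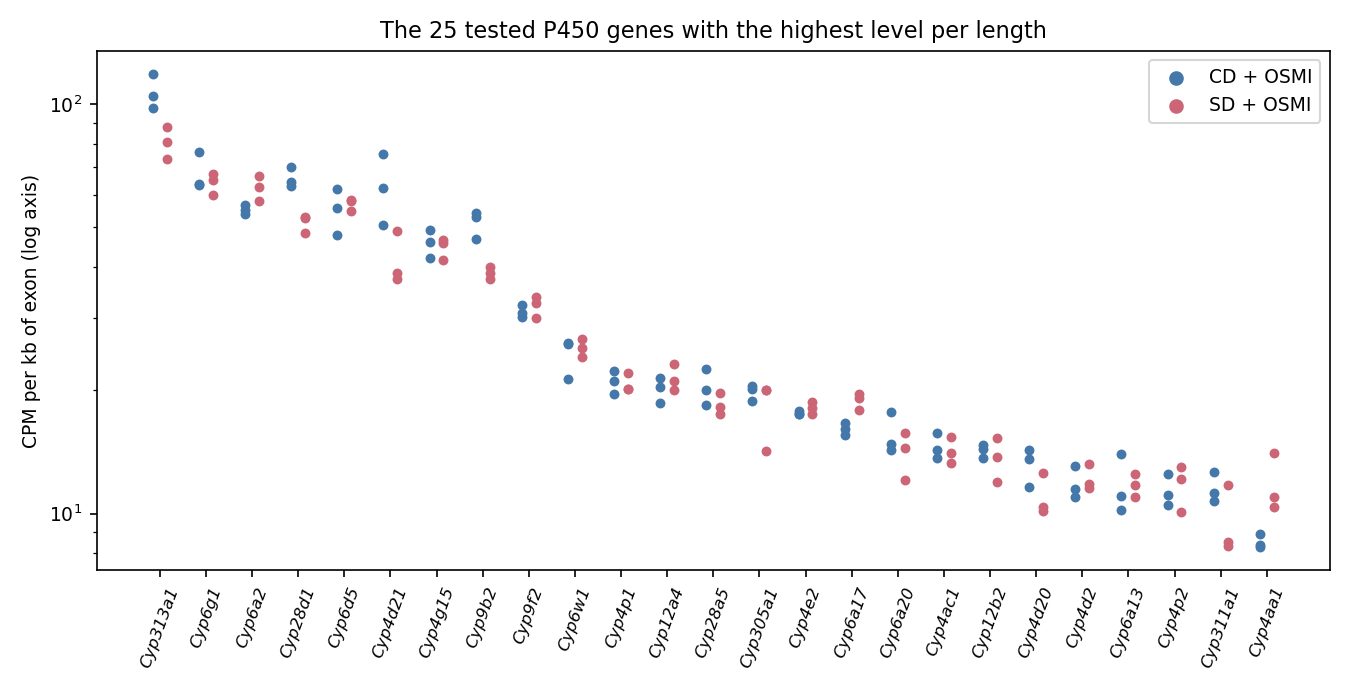
Level of the 25 most abundant tested P450 genes per length (CPM per kb of exon, log axis) in the 3 CD + OSMI libraries (blue) and the 3 SD + OSMI libraries (red). *Cyp313a1*, *Cyp28d1*, *Cyp4d21* and *Cyp9b2* lie lower on SD + OSMI, and *Cyp4aa1*, the last of the 25, lies higher.

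Summed over the 83 members, P450 transcripts made up 1766.4, 1813.3 and 1854.9 CPM in the CD + OSMI libraries and 1731.3, 1681.5 and 1727.9 CPM in the SD + OSMI libraries. On these TMM-scaled levels, every sugar-diet library was below every control library. The means were 1811.5 ± 44.3 CPM and 1713.6 ± 27.8 CPM (SD, n = 3 each), a ratio of 0.946. Without *Cyp313a1* the ratio was 0.966 and the highest sugar-diet library, at 1597.2 CPM, was just above the lowest control library, at 1596.7 CPM. The 6 members that fell summed to 459, 498 and 541 CPM on CD + OSMI and to 396, 342 and 360 CPM on SD + OSMI, and the 4 that rose to 54.0, 43.4 and 40.5 CPM and to 67.3, 102 and 77.2 CPM. These last sums describe genes chosen by their difference and carry no test.

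By clan, 10.8% of the tested CYP3-clan genes, 18.5% of the CYP4-clan genes and 12.5% of the mitochondrial-clan genes were called. Over all genes tested, 9.09% were called and 47.1% were practically equivalent. No clan or subfamily is called particular from these counts. Of 37 tested CYP3-clan genes, 1 rose, 3 fell and 19 were practically equivalent, with a median log2 fold change of −0.01. Of 27 tested CYP4-clan genes, 2 rose, 3 fell and 6 were practically equivalent, with a median of 0.04. The median size of the log2 fold change was 0.38 in the CYP4 clan and 0.15 in the CYP3 clan, against 0.19 over all genes tested. These sizes include the error of each gene's estimate, and the difference between the clans was not tested. Of 8 mitochondrial-clan genes, 1 rose and 2 were practically equivalent. Of 3 tested CYP2-clan genes, edgeR called none, DESeq2 called none and none had an unadjusted p under 0.05.

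Among subfamilies, Cyp6a was the largest, with 13 tested members. *Cyp6a18* rose, none fell and 7 were practically equivalent, and the log2 fold changes ran from −0.58 for the pseudogene *Cyp6a15Psi* to 1.18 for *Cyp6a19*, with a median of 0.11. In the Cyp4d subfamily 1 of 6 fell (*Cyp4d21*), and in the Cyp4ac subfamily 1 of 3 (*Cyp4ac2*). The Cyp4e, Cyp4p and Cyp6d subfamilies, with 3 tested members each, had no member called by edgeR or DESeq2 and none with an unadjusted p under 0.05. By chromosome arm, 4 of the 6 members that fell lie on 2L, where 12 were tested and none rose, while 2.06% of the 2182 tested genes of that arm fell and 8.25% rose. Nothing is called particular to the arm from these counts. On 2R, which holds 33 tested members, 2 rose and 1 fell, against 7.41% and 1.68% of 2374 genes. On X, none of 12 was called by edgeR or DESeq2, with 2 at an unadjusted p under 0.05, while 88 of the arm's 1863 tested genes rose and 28 fell.

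Many fly P450 genes lie in tandem clusters, which allowed each gene to be compared with its neighbour in the same library. There were 20 pairs of adjacent members of 1 subfamily, both tested and within 10000 bases of each other. In 5 pairs 1 gene was called, in 15 neither was, and no pair had both called. *Cyp309a1* fell, and *Cyp309a2*, 55 bases away on 2L, averaged 11.1 ± 2.41 CPM on the control diet and 11.1 ± 2.56 CPM on the sugar diet (SD, n = 3 each, log2 fold change 0.0025, edgeR adjusted p = 0.996). The log2 ratio of *Cyp309a1* to *Cyp309a2* was 0.03, −0.07 and −0.14 in the control libraries and −0.57, −0.92 and −0.87 in the sugar-diet libraries. Every sugar-diet ratio was below every control ratio.

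*Cyp4ac2* lies between *Cyp4ac1* and *Cyp4ac3* on 2L, 492 and 42 bases from them. *Cyp4ac1* had a log2 fold change of −0.03 (SE 0.12, practically equivalent) and *Cyp4ac3* one of 0.37 (SE 0.26, adjusted p = 0.437 from edgeR). The log2 ratio of *Cyp4ac2* to *Cyp4ac3* was 1.28, 1.45 and 1.41 on CD + OSMI and 0.46, 0.29 and 0.36 on SD + OSMI. The mean difference was −1.01, without overlap. The spread within each diet was small (SD 0.090 and 0.085), but *Cyp4ac3* had only 49 to 69 counts per library. The log2 fold changes of *Cyp4ac2* and *Cyp4ac3* had SEs of 0.19 and 0.26. Relative to *Cyp4ac1*, *Cyp4ac2* was lower on SD + OSMI by a mean difference in log2 ratio of −0.60, also without overlap.

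For *Cyp9b2* and *Cyp9b1*, 468 bases apart on 2R, the log2 ratio was 3.83, 4.27 and 3.79 on CD + OSMI and 3.46, 3.64 and 3.59 on SD + OSMI. *Cyp9b1* itself had a log2 fold change of −0.01 (SE 0.23). The ratio of *Cyp28d1* to *Cyp28d2*, 1114 bases apart, overlapped between the diets, with a mean log2 ratio of 4.19 ± 0.13 on CD + OSMI and 3.95 ± 0.17 on SD + OSMI (SD, n = 3 each), and *Cyp28d2* had a log2 fold change of −0.12 ± 0.23 (SE, edgeR adjusted p = 0.810). The ratio did not overlap in 4 of the 5 pairs with a called gene and in 2 of the 15 pairs without one. The pairs with a called gene were picked by that call, and the difference between neighbours was not tested.

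**Figure D4:**
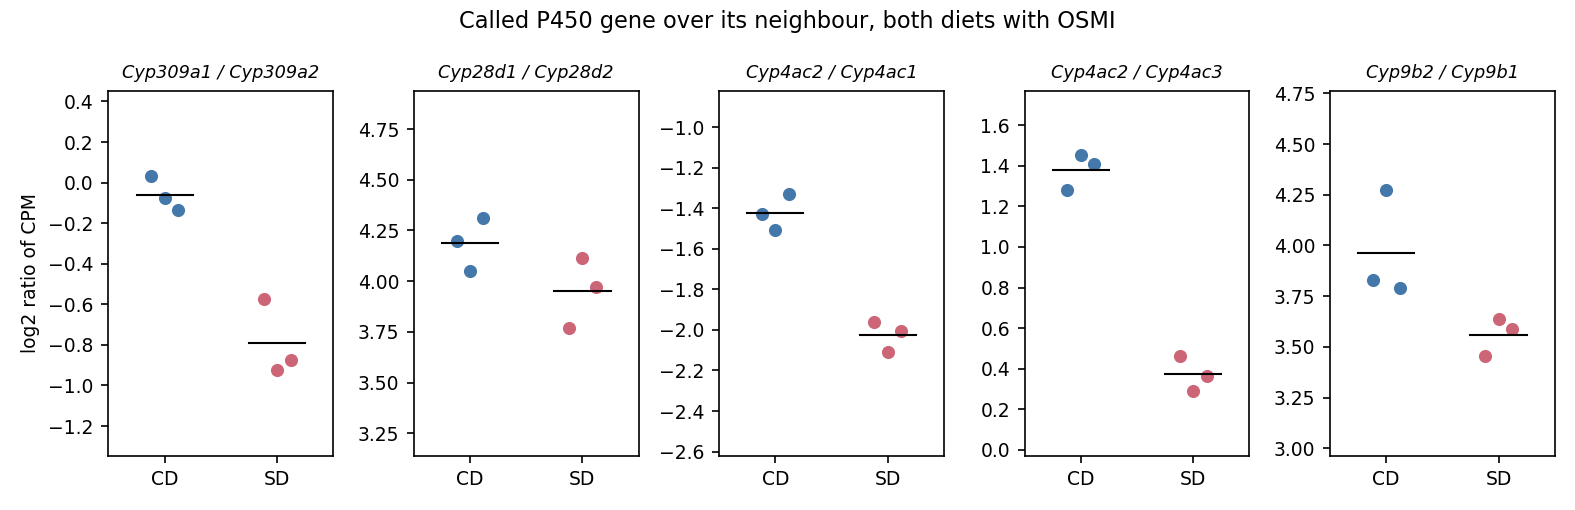
Log2 ratio of the CPM of a called P450 gene to that of its neighbour in the 3 libraries of each diet (blue for CD + OSMI, red for SD + OSMI; black lines are means). The vertical axes span the same range of log2 units at different positions. The diets are apart for *Cyp309a1*, *Cyp4ac2* and *Cyp9b2*, and overlap for *Cyp28d1*.

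Members with a known role were read from 2 lists. Of all genes tested, 6.91% rose, 2.18% fell and 47.1% were practically equivalent, and neither list is called particular from its counts. The list of enzymes linked to insecticides and toxins had 10 tested genes, of which none rose, *Cyp28d1* fell and 6 were practically equivalent (*Cyp28d1* among them), with a median log2 fold change of 0.03. Besides *Cyp6g1*, *Cyp6a2* and *Cyp6w1*, they were *Cyp12a4*, which can give resistance to lufenuron (31.6 to 39.4 CPM over the 6 libraries, log2 fold change 0.09), *Cyp6a23* (0.10), *Cyp6a8* (0.15), *Cyp4e3* (−0.20), *Cyp6g2* (−0.17) and *Cyp12d1-p* (0.0011). The last value is uncertain, since *Cyp12d1-d*, a near-identical copy, had 0 counts in every library, and reads that match both copies cannot be assigned. A count of 0 there allows up to 0.186 to 0.225 CPM per library, for counting error alone.

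The list of members with a role in development or behaviour had 9 tested genes, of which none rose, *Cyp4d21* fell and 4 were practically equivalent, with a median log2 fold change of −0.03. *Cyp6a20*, known for its effect on male aggression, averaged 28.1 ± 3.26 CPM on the control diet and 25.4 ± 3.34 CPM on the sugar diet (SD, n = 3 each, log2 fold change −0.15). *Cyp6a17*, which acts in temperature preference, was at 26.9, 27.9 and 28.7 CPM on CD + OSMI and at 30.9, 33.1 and 33.9 CPM on SD + OSMI. Its diets did not overlap, yet the change was within the 1.5-fold limit and was not called (log2 fold change 0.23 ± 0.10 SE, edgeR adjusted p = 0.214). *Cyp18a1*, which inactivates ecdysteroids, had a log2 fold change of 0.16 and was practically equivalent, as was *Cyp4g15*. *Cyp311a1* (−0.27), *Cyp301a1* (0.23), *Cyp310a1* (−0.24) and *Cyp6t3* (0.53) were neither called nor equivalent, and *Cyp303a1* was not tested.

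Of the 8 members that were not tested, *Cyp6t2Psi*, a pseudogene, came closest to the filter, with 15, 8 and 11 counts on CD + OSMI and 4, 5 and 7 on SD + OSMI. The others were *Cyp303a1*, *Cyp308a1*, *Cyp316a1*, *Cyp12d1-d* and the tandem genes *Cyp313a2*, *Cyp313a3* and *Cyp313a5*, with 0 to 38 counts in all. The 3 tandem genes had 5, 11 and 3 counts in all, while *Cyp313a1* of the same subfamily had 13773. Exons of 21 of the 83 members overlap those of another counted gene, and in 5 tested members (*Cyp6d2*, *Cyp9c1*, *Cyp4d14*, *Cyp4d2* and *Cyp4ae1*), none of them called, the overlap takes over 50% of the exons.

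Genes that work with P450s were read in the same way, beside the 6.91% of all genes that rose, the 2.18% that fell and the 47.1% that were equivalent. *Cpr*, the reductase that feeds electrons to the P450s of the endoplasmic reticulum, rose. It was at 259, 267 and 250 CPM on CD + OSMI and at 308, 351 and 330 CPM on SD + OSMI, so that the diets were clearly apart. The log2 fold change was 0.35 (SE 0.083, adjusted p = 0.0371 from edgeR), a change that was also practically equivalent within 1.5-fold. It was the only one called of 6 redox partners, of which 4 were practically equivalent and whose median log2 fold change was −0.11. Of 7 heme synthesis genes, edgeR and DESeq2 called none, 4 were practically equivalent and 1 had an unadjusted p under 0.05.

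Among 8 regulators of detoxification genes, none rose, 6 were practically equivalent and 1 fell. That gene was *Keap1*, whose product restrains the detoxification factor encoded by *cnc*. It was at 40.2, 43.8 and 40.6 CPM on CD + OSMI and at 34.6, 27.1 and 30.0 CPM on SD + OSMI. This was a log2 fold change of −0.44 ± 0.11 (SE, edgeR adjusted p = 0.0427). *cnc* itself had a log2 fold change of −0.13 (adjusted p = 0.425 from edgeR). Of the ecdysteroid P450s with other symbols, only *sad* and *shd* passed the filter. *shd*, whose enzyme makes the active hormone 20-hydroxyecdysone from ecdysone, rose from 4.46, 6.38 and 2.85 CPM to 9.31, 8.33 and 7.68 CPM, a log2 fold change of 0.89 ± 0.26 (SE, edgeR adjusted p = 0.0694). *sad* had a log2 fold change of 0.63 ± 0.49 (SE, edgeR adjusted p = 0.496). *Cpr*, *Keap1* and *shd* were each called in 2 or 3 of the 6 analyses that left out 1 library, and each lost its call when replicate 3 of CD + OSMI, or replicate 5 or 6 of SD + OSMI, was left out.

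Markers of other cell types moved with diet in the same libraries. Over all markers of a list, the oenocyte genes summed to 112 to 155 CPM on CD + OSMI. On SD + OSMI they summed to 231 to 388 CPM, and 3 of 5 were called higher, against 6.91% of all genes. Most of the oenocyte sum was *FASN2* (log2 fold change 1.21), with a mean of 112 of 135 CPM on CD + OSMI. The testis genes summed to 1203.6 to 1834.9 CPM and 2203.4 to 3669.3 CPM, with 12 of 23 called higher, against the same 6.91%. Of 24 tested accessory gland genes, 16 were called higher, although the summed levels overlapped (511 to 638 CPM and 628 to 803 CPM). Most of the accessory gland sum was *EbpIII*, with a mean of 458 of 592 CPM on CD + OSMI. *EbpIII* was practically equivalent (log2 fold change −0.18). The fat body genes summed to 10235.6 to 12794.6 CPM on CD + OSMI and 7770.3 to 9599.8 CPM on SD + OSMI. Of 7 tested genes, 4 were called lower, against 2.18% of all genes, and 3 were practically equivalent (*Apoltp*, *bmm* and *Lpin*). Most of the sum was *apolpp*, with a mean of 8190.6 of 11302.4 CPM on CD + OSMI, and *Lsp2* fell the most (log2 fold change −6.63). SD + OSMI replicate 5 had the highest sum of the testis, oenocyte, accessory gland, gut and Malpighian tubule lists and the lowest sum of the neuron, glia and hemocyte lists. It also had the highest level of each of the 4 P450 genes that rose and the lowest level of 4 of the 6 that fell.

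For the gut and the Malpighian tubules, the other P450-rich organs, the summed levels overlapped between the diets. The gut genes summed to 383 to 636 CPM on CD + OSMI and 482 to 844 CPM on SD + OSMI, with 1 of 11 tested genes called higher and 1 called lower by edgeR, 4 called by DESeq2, and a median log2 fold change of 0.61. The Malpighian tubule genes summed to 60.0 to 71.7 CPM and 70.6 to 82.2 CPM, with 1 of 6 called higher by edgeR, 1 called by DESeq2 and a median log2 fold change of 0.61. The 6 neuron genes, markers of the class that TRAP was aimed at, all had negative log2 fold changes, with a median of −0.19. Their sums overlapped (4945.3 to 5498.2 CPM on CD + OSMI and 4107.7 to 5080.9 CPM on SD + OSMI), and edgeR called 1 lower (*cac*, a calcium channel gene, log2 fold change −0.36 ± 0.11 SE, adjusted p = 0.0699) and DESeq2 called 2. Glial genes summed to 1637.7 to 1729.0 CPM on CD + OSMI and 1461.3 to 1563.5 CPM on SD + OSMI, without overlap. Of the 7, edgeR called none and DESeq2 called 1, and 1 had an unadjusted p under 0.05. All 7 were practically equivalent, against 47.1% of all genes. The largest part of the glial sum was *Gs2* (log2 fold change −0.24), with a mean of 799 of 1669.3 CPM on CD + OSMI. Only *moody* had a positive log2 fold change (0.08). Hemocyte genes were also lower without overlap, at 256 to 279 CPM and 208 to 237 CPM. None of 4 was called by edgeR or DESeq2, and 1 had an unadjusted p under 0.05. Most of the hemocyte sum was *Hml*, with a mean of 247 of 264 CPM on CD + OSMI, and *Hml* was practically equivalent. None of these lists had all its markers at 0, and only 1 gene, in the gut list, had 0 counts in every library. The part of the marker shifts in the P450 differences was not tested.

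**Figure D5:**
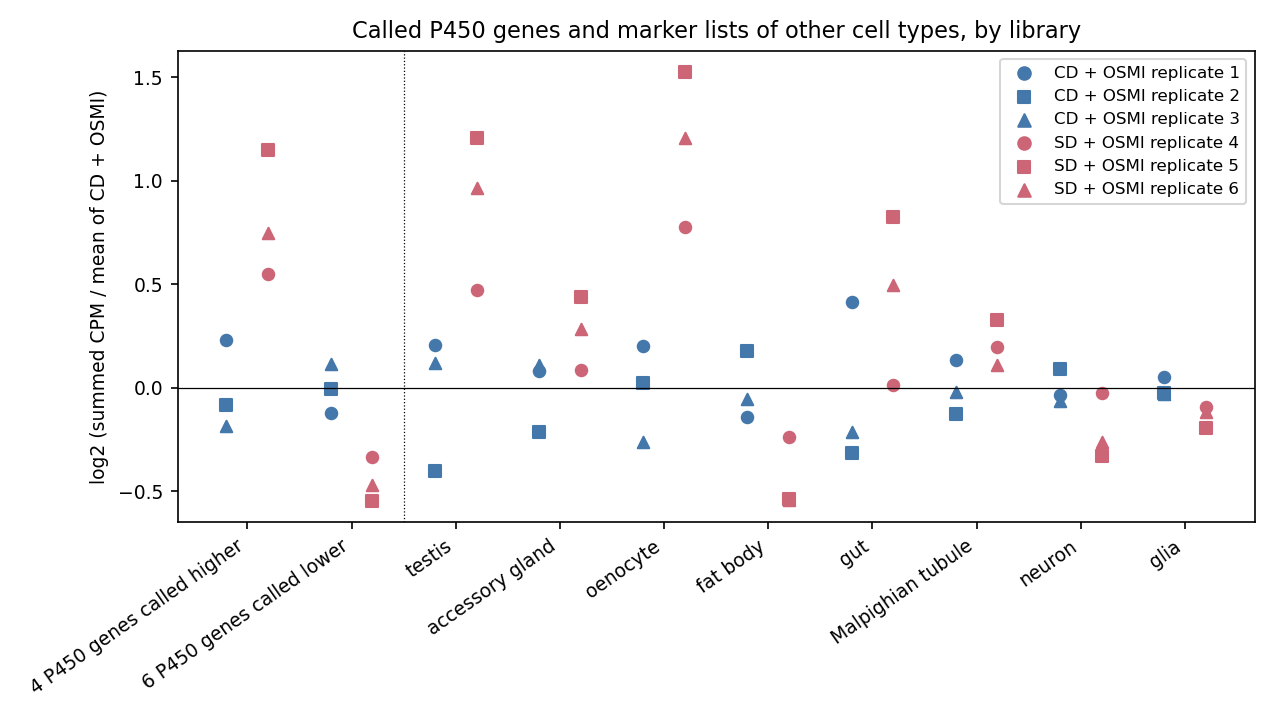
Summed CPM of the 4 P450 genes that rose, the 6 that fell and marker lists of other cell types, as the log2 ratio to the mean of the 3 CD + OSMI libraries (vertical axis; blue CD + OSMI, red SD + OSMI, symbols are replicates). SD + OSMI replicate 5 (red square) is highest for the genes that rose and for the testis, accessory gland, oenocyte, gut and Malpighian tubule lists. The fat body sum is lower on SD + OSMI.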

How the data were processed

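RNA recovered by TRAP was ribo-depleted before library preparation (Ovation SoLo) and NextSeq sequencing, and the authors aligned the reads to BDGP6. Per the labels, the processing notes name STAR, SAMtools 1.4, HTSeq and DESeq2 1.18.0. Whether the count used strand is not given in the sources used here. The values the authors deposited were raw counts per gene, with no normalization. The labels give no sequencing batch.

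Positions, symbols and exon lengths came from the Ensembl annotation of BDGP6, which named 17215 of 17489 genes. Genes that reached 10 counts in 3 or more libraries were fitted in R 4.3.3 with edgeR 4.0.16 (TMM factors of 0.956 to 1.04, robust quasi-likelihood F test, diet as the only term) and adjusted by the Benjamini-Hochberg method over all 11915 genes. SEs were the log2 fold change, without its sign, over the square root of F. Intervals are 95% intervals. The equivalence test used DESeq2 1.42.0, and limma 3.58.1 served as an alternative. Tables and figures were made in Python 3.11.15. In simulated counts of 11753 genes, edgeR found 30.6% of 98 genes changed 1.5-fold and 72.7% of 99 changed 2-fold, and 14 of 116 calls were false. The p-values measure the spread between these replicates only.

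Members with values in the text were those called, those of at least 2-fold, the 10 highest per kb and those of both role lists. Of other genes, those called in a pathway list were given. *cnc*, *sad*, overlapping genes and tandem neighbours were added after their values were seen. Members, gene lists and tests were chosen with earlier results of these data known. Of the 183 list entries, 176 matched a gene. The alternatives were DESeq2, limma-voom, other size factors, other count filters, other thresholds and limits, leaving out each library or the 20 most abundant genes, and summing the Cyp12d1 copies. No protein or promoter sequence was analysed here, and *Cyp6a21* was not analysed here.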

Additional observations from a re-analysis of the deposited data

How the results depend on the processing

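No paired analysis was possible because the groups compared share no replicate numbers. Under DESeq2, limma-voom, RLE or upper-quartile factors, no filter, a filter of at least 50 counts, removal of the 20 most abundant genes, or summing of the Cyp12d1 copies, all 10 called P450 genes were called again with the same sign. DESeq2 and the fit without a filter added *Cyp4ad1*. The largest shift of the median of all genes under another scaling was 0.011 on the log2 scale. At an adjusted p under 0.05, 1 member was higher (*Cyp312a1*) and 3 were lower. At an adjusted p under 0.1 with a 1.5-fold difference required, 3 were higher and 3 lower. Leaving out 1 library at a time gave 0 to 7 members higher and 0 to 8 lower, and 37 of the 60 values of called members no longer passed. The cause was not tested. The number of practically equivalent members was 52 with a limit of 2-fold and 0 with a narrower limit. The ratio of summed levels ran from 0.934 to 0.957 over libraries left out.

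With 3 libraries per diet, simulated 1.5-fold changes were missed more often than found. That simulation covered genes in general and gave 116 calls, against 1083 in the data, so it does not give the power for single members. The members neither called nor equivalent did not pass the equivalence test. Some of their intervals lay within 1.5-fold (*Cyp4d20*, *Cyp6u1*, *Cyp4e1* and *Cyp6d4* among them). Others, such as that of *Cyp4d14*, reached beyond it, and for these the data do not settle whether a change of this size occurred. The counts do not separate *Gr5a+* neurons from other cells, or the diet from cell types whose markers moved with it.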
